A study of Homo sapiens and Mus musculus with 25 samples.

Results

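The proteasome genes described here are the 46 of 19962 protein-coding genes (GENCODE release 44, chromosomes 1 to 22 and X) whose symbol begins with PSMA, PSMB, PSMC, PSMD, PSME or PSMF and a digit. The rule reads symbols only, though it was set with earlier results of these data known. Of these, 31 encode constitutive subunits, which are 7 alpha and 7 beta subunits of the core barrel, 6 ATPases of the base and 11 non-ATPase subunits of the regulatory particle. A further 3 encode the inducible catalytic subunits of the immunoproteasome (PSMB8, PSMB9 and PSMB10), and 2 encode tissue forms (PSMA8 of the testis and PSMB11 of the thymic cortex). The remaining genes are 3 assembly chaperones that carry a subunit symbol (PSMD5, PSMD9 and PSMD10), 4 activators (PSME1 to PSME4) and 1 inhibitor (PSMF1). PSMC3IP and PSME3IP1, 2 genes named for proteins that bind a proteasome protein, match by symbol only and are no subunits.

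The proteasome degrades proteins tagged with ubiquitin. Its barrel is built of alpha and beta rings, the catalytic sites lie on PSMB5, PSMB6 and PSMB7, and a regulatory particle of ATPases and non-ATPase subunits recognises, unfolds and feeds in the substrate. Every nucleated cell needs the constitutive subunits, whereas interferon gamma raises PSMB8, PSMB9 and PSMB10, which take the places of PSMB5, PSMB6 and PSMB7 and alter the peptides made for antigen presentation. Trimethylated lysine 4 of histone H3 (H3K4me3) typically lies over the start of active genes, the dimethylated form (H3K4me2) over and beside it, and the monomethylated form (H3K4me1) beside it and at enhancers.

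The cells were K562, an established leukaemia line with erythroid features, unmodified and untreated in all lists used. Each of 17 antibodies raised against H3K4me1 (5 antibodies), H3K4me2 (4) or H3K4me3 (8) was used in ChIP-seq calibrated with barcoded nucleosome standards, and each gave 1 list of peaks on GRCh38 (hg38). Further lists were 3 in which the authors corrected each degree of methylation for off-target capture, computed from libraries of 4 of these antibodies, and 1 list each for H3K27me3 (Cell Signaling Technology 9733) and H3K9me3 (Koide Lab 309M3B). The spread given is the spread between antibodies on 1 cell line. Lists covered 18.7 Mb (EpiGentek A-4033-050, H3K4me3) to 1593 Mb (Active Motif 39635, H3K4me1) of the genome, and the number of reads behind them is unknown. Abcam ab8580, raised against H3K4me3, stood apart with 769 Mb. Chromosomes 13, 14 and X, which hold 9 of the proteasome genes, had a peak at only 39.9% ± 21.0, 49.9% ± 9.43 and 35.8% ± 13.2 of their gene starts for H3K4me1, H3K4me2 and H3K4me3 (SD over 5, 4 and 8 antibodies), against 81.8% ± 3.85, 78.5% ± 7.90 and 56.8% ± 14.2 elsewhere. Of 11 erythroid marker genes, 9 had a peak in at least 5 of the 8 H3K4me3 lists, against 2 of 7 markers of other blood lineages.

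Most proteasome genes had peaks of each H3K4 target near their start in most antibody lists, whereas 19 of the 46 had all 3 degrees in the corrected lists. Within 1 kb either side of the start site, a peak lay at 92.6% ± 9.43 of the 46 genes in H3K4me1 lists (SD, n = 5), 94.6% ± 3.77 in H3K4me2 lists (n = 4) and 89.9% ± 4.01 in H3K4me3 lists (n = 8). Over all genes the shares were 78.0% ± 5.16, 76.0% ± 7.12 and 54.9% ± 13.8. In the H3K4me3 lists the 46 genes thus stayed within a narrow band of 82.6% to 93.5%, although the antibodies ranged from 33.5% to 75.3% over all genes. A peak was present in every H3K4me1 list at 35 genes, where 60.8% of all genes had this, in every H3K4me2 list at 41 genes (59.5% of all genes), and in every H3K4me3 list at 35 genes (31.1% of all genes). All 17 lists had a peak at 30 of the 46 genes (27.9% of all genes), and 0 of the 46 lacked a peak in all of them, as 7.71% of all genes did. Among the 30 were PSMA1, PSMA2, PSMA4 and PSMA5 of the alpha ring, PSMB1, PSMB2, PSMB3, PSMB5 and PSMB7 of the beta ring, and PSMB8, PSMB9 and PSMB10 of the immunoproteasome. The H3K4me1 list with the fewest was Active Motif 39635 with 35 genes (70.7% of all genes), and 2 of the 9 genes on chromosomes 13, 14 and X were among them. Over all genes this list had a peak at 4.39% of the starts on these chromosomes, against 77.3% elsewhere. On those chromosomes the proteasome genes had a peak at 80.0% ± 32.8, 86.1% ± 10.6 and 68.1% ± 7.12 for H3K4me1, H3K4me2 and H3K4me3, against 95.7% ± 4.10, 96.6% ± 2.59 and 95.3% ± 4.02 for the 37 genes elsewhere. The part of the sparse chromosomes in the results below was not tested beyond leaving them out.

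**Figure D1:**
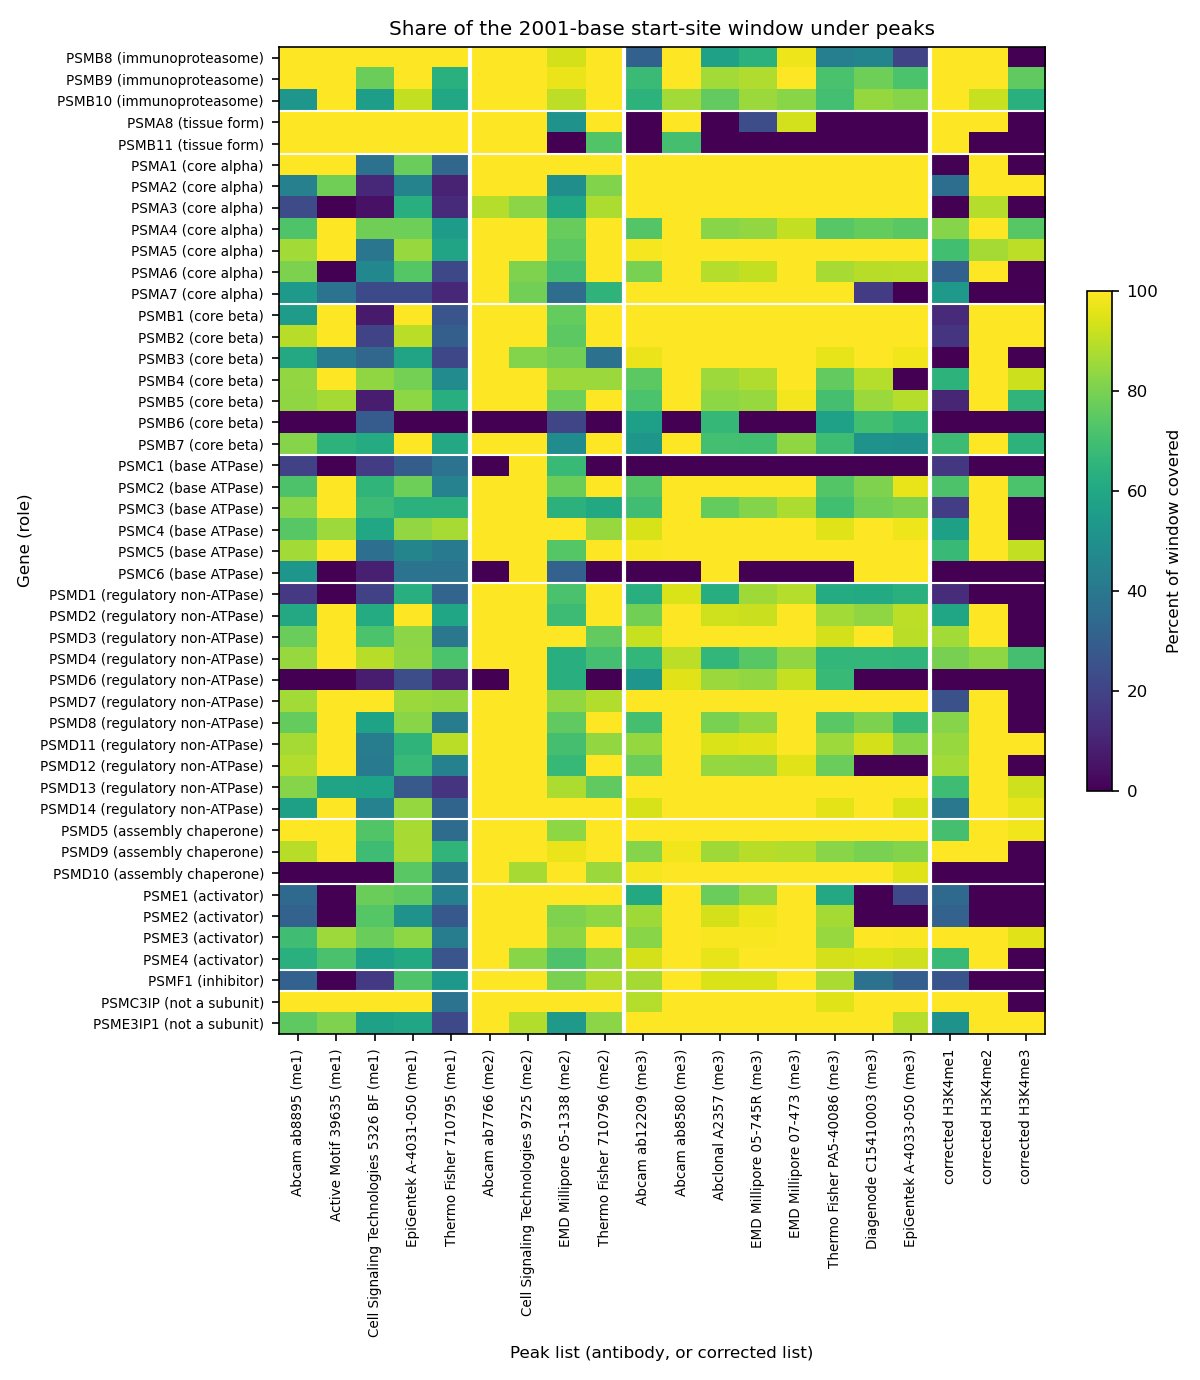
Percent of the 2001 bases around the start site under a peak (colour) for each of the 46 genes (rows, grouped by role) in the 17 antibody lists, ordered by target, and the 3 corrected lists (columns). PSMA8 and PSMB11 are filled in all 5 H3K4me1 lists and have a peak in 3 and 1 of the 8 H3K4me3 lists, while PSMC1 is empty in all 8.

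Over the 31 constitutive subunits as a group, H3K4me3 was most frequent at the start and H3K4me1 on both sides of it, with exceptions named here and below. The base at the start site lay under a peak in H3K4me1 lists at 27.7% ± 19.7 of the constitutive subunits (SD over 5 antibodies), in H3K4me2 lists at 60.5% ± 33.0 (4 antibodies) and in H3K4me3 lists at 89.9% ± 5.30 (8 antibodies). At 2 kb upstream of the start, H3K4me1 covered 81.9% ± 6.69 of them, and at 2 kb downstream 91.6% ± 10.3. H3K4me3 covered 16.9% ± 21.2 of the constitutive subunits at 2 kb upstream and 29.8% ± 28.0 at 2 kb downstream. Over all genes the dip of H3K4me1 was shallower, with 66.2% ± 5.05 at 2 kb upstream, 45.5% ± 11.1 at the start and 68.8% ± 3.58 at 2 kb downstream. In the majority of the H3K4me1 lists the start base was covered at 11 of the 46 genes (42.4% of all genes) and at 4 of the 31 constitutive subunits, PSMA1, PSMD4, PSMD7 and PSMD8. For H3K4me2 the same held at 27 of the 46 genes (56.3% of all genes), and for H3K4me3 at 42 of the 46 (48.7% of all genes), among them 29 of the 31 constitutive subunits. PSMC1 and PSMC6 were the 2 constitutive subunits outside that count.

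**Figure D2:**
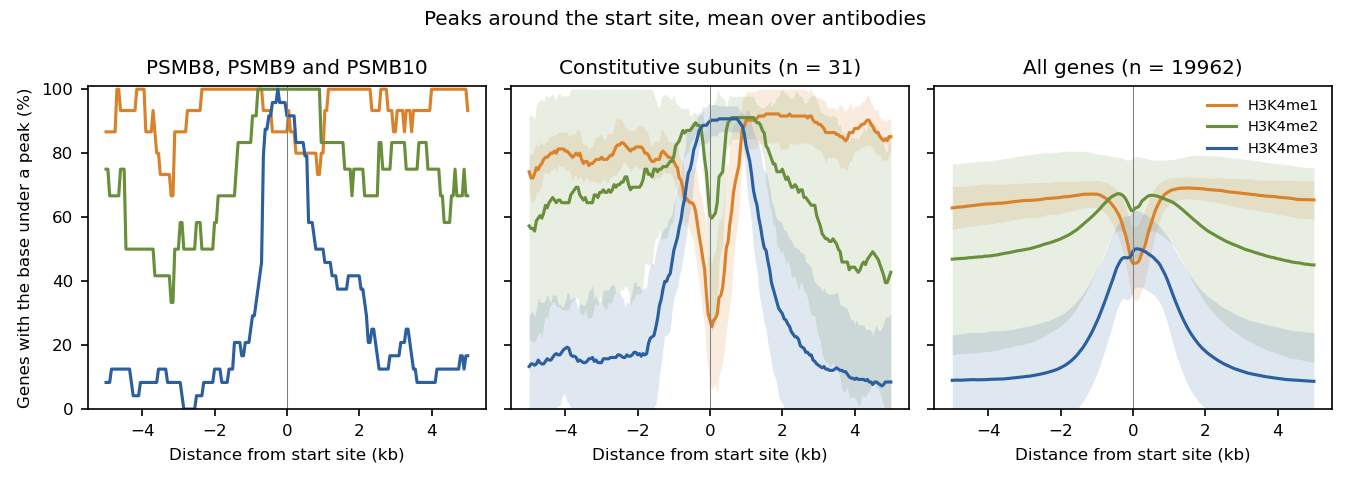
Percent of genes whose base at a given distance from the start site (horizontal axis, kb, downstream to the right) lies under a peak, as the mean over antibodies of each target, for the 3 immunoproteasome genes, the 31 constitutive subunits and all genes. Shading is 1 SD over antibodies and is left out for the 3 genes. In the constitutive subunits H3K4me1 falls to 27.7% at the start where H3K4me3 reaches 89.9%, and in the immunoproteasome genes H3K4me1 stays at 86.7%.

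H3K4me1 and H3K4me3 were then compared gene by gene as the percent of the 2001-base window under peaks, with an exact two-sided permutation test over the antibodies and Benjamini-Hochberg adjustment over all 19962 genes. H3K4me1 coverage was lower than H3K4me3 coverage at 16 of the 46 genes (11.3% of all genes) and higher at 4 (26.5% of all genes), at an adjusted p of at most 0.05. The 16 were PSMA2, PSMA3, PSMA5 and PSMA6 of the alpha ring, PSMB2 and PSMB3 of the beta ring, PSMC4 and PSMC5 of the base, PSMD1, PSMD3, PSMD13 and PSMD14 of the regulatory particle, the chaperone PSMD10, the activators PSME3 and PSME4, and PSME3IP1. The 4 were PSMB8, PSMA8, PSMB11 and PSMC1. The median difference, H3K4me1 minus H3K4me3, was -20.7 percentage points over the 46 genes, -22.7 over the 31 constitutive subunits and 7.55 over all genes. Among the H3K4me1 and H3K4me3 antibodies run beside the AR16 input, 13 of the 46 genes were lower and 1 was higher. Among the H3K4me1 and H3K4me3 libraries amplified for 8 cycles, 0 genes of the whole table passed (exact permutation test, smallest adjusted p 0.0556), with 7386 at an unadjusted p of at most 0.05. Fewer libraries raise the smallest p that the test can give, so this 0 does not show that the differences were absent. Leaving out 1 antibody at a time gave 9 to 16 lower and 1 to 5 higher genes. The direction depended on the window. With 500 bases either side, 23 of the 46 genes were lower (15.4% of all genes) and 1, PSMB11, was higher (19.2% of all genes). With 2500 bases either side, which takes in the flanks, 1 gene, PSMD10, was lower (0.997% of all genes) and 24 were higher (56.1% of all genes). Neither H3K4me2 against H3K4me3 nor H3K4me1 against H3K4me2 gave a called gene anywhere in the genome (0 of 19962 in both exact tests, smallest adjusted p 0.160 and 0.252). With 4 against 8 and 5 against 4 antibodies no p can fall below 0.00404 and 0.0159, which makes the adjusted threshold hard to reach, and 4993 and 2080 genes had an unadjusted p under 0.05, among them 9 and 12 of the 46.

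Among the genes called lower for H3K4me1, the gaps to H3K4me3 were widest at PSMA3, PSMD10 and PSMA2. PSMA3, an alpha ring subunit, was covered at 23.2% (Abcam ab8895), 0% (Active Motif 39635), 5.05% in the list of Cell Signaling Technologies 5326 BF, 63.0% in that of EpiGentek A-4031-050 and 12.2% (Thermo Fisher 710795) for H3K4me1, and at 100% in all 8 H3K4me3 lists. The groups did not overlap, and the difference was -79.3 points (exact permutation p = 0.00155, adjusted p = 0.0115), where 0.00155 is the smallest p that 5 against 8 antibodies allow. PSMD10, the chaperone also known as gankyrin, was covered at 0%, 0%, 0%, 74.5% and 38.7% in the H3K4me1 lists, in this same order, and at 95.1% to 100% in the H3K4me3 lists (median 100%). It differed by -76.6 points (exact permutation p = 0.00155, adjusted p = 0.0115). PSMA2 of the alpha ring was covered at 43.5%, 78.4%, 11.3%, 44.8% and 9.65% in the H3K4me1 lists and at 100% in every H3K4me3 list, a difference of -62.5 points (exact permutation p = 0.00155, adjusted p = 0.0115). With 2500 bases either side the PSMA2 difference was 8.59 points and did not pass (exact permutation, adjusted p = 0.459). PSMA3 lies on chromosome 14 and PSMD10 on X, and PSMA2 on chromosome 7. Over all genes on chromosomes 13, 14 and X the median window coverage was 16.9% for H3K4me1 and 7.91% for H3K4me3. Elsewhere these medians were 70.5% and 46.1%. Of the 46 genes, 11 have the start of another protein-coding gene within 1 kb, and at these the values of both genes cannot be told apart. Among them are PSMA2 (MRPL32), PSMD10 (ATG4A, 236 bases away), PSME4 (ACYP2, 120), PSMC5 (FTSJ3, 232), PSMD13 (SIRT3, 634), PSMA7 (SS18L1, 375) and PSME3IP1 (RSPRY1, 290). Without chromosomes 13, 14 and X, 13 proteasome genes were lower and 2 higher. Shares by direction over all genes were not computed for that run.

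**Figure D3:**
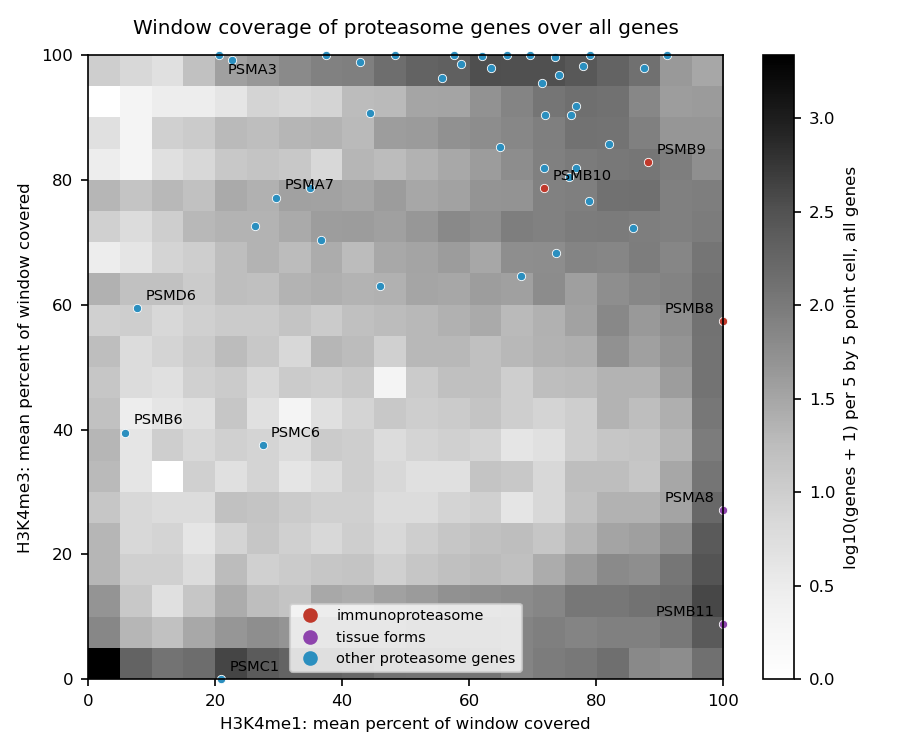
Mean percent of the start-site window covered in the 5 H3K4me1 lists (horizontal) against the 8 H3K4me3 lists (vertical), for the 46 proteasome genes (points) over all 19962 genes (grey cells, logarithmic shading). Most proteasome genes lie along the top, PSMB8, PSMA8 and PSMB11 lie on the right edge at 100% H3K4me1, and PSMC1 lies at 0% H3K4me3.

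By role, all 7 alpha genes had H3K4me3 over the start base in most lists, 6 of the 7 had a peak in every H3K4me3 list, and 4 were called lower for H3K4me1 (11.3% of all genes). PSMA7 was the exception, with 17.7% of its window covered in Diagenode C15410003 and 0% in EpiGentek A-4033-050, against 100% in the other 6 H3K4me3 lists. Its H3K4me1 coverage of 29.6% ± 16.6 against 77.2% ± 42.5 for H3K4me3 did not pass (exact permutation p = 0.0311, adjusted p = 0.0755). Among the 7 beta genes 2 were called, and all 7 had H3K4me3 over the start base in the majority of the lists. PSMB3, a structural beta subunit, was covered at 42.9% ± 16.6 for H3K4me1 (n = 5) and at 98.9% ± 1.54 for H3K4me3 (n = 8), with no overlap (exact permutation p = 0.00155, adjusted p = 0.0115). Of the 6 base ATPases 2 were called lower and 1 higher, and of the 11 non-ATPase subunits 4 were called lower, where 11.3% of all genes were lower and 26.5% higher. These are small counts, and no role was tested against another.

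A few constitutive genes lacked peaks in many lists. PSMC1, an ATPase of the base on chromosome 14, had a peak in 6 of the 17 lists and in 0 of the 8 H3K4me3 lists. Its nearest H3K4me3 peak lay 2130 bases from the start site in EMD Millipore 07-473 and 5956 bases or more away in the other 7. H3K4me1 covered 19.9%, 0%, 17.8%, 29.3% and 38.1% of the window, in the order of antibodies given above, so PSMC1 was higher for H3K4me1 by 21.0 points (adjusted p = 0.0395, exact permutation p = 0.0140). The call was lost without any 1 of 11 antibodies, while the difference ranged from 16.8 to 26.3 points without 1 antibody at a time. That difference rests on the absence of H3K4me3 peaks, and a missing peak in these lists does not show an unmodified start. PSMB6, which carries a catalytic site and lies on chromosome 17, had a peak in 7 of 17 lists. H3K4me3 covered 56.4% to 69.8% of its window in 5 lists and 0% in the other 3, Abcam ab8580, EMD Millipore 05-745R and EMD Millipore 07-473. H3K4me1 reached PSMB6 in 1 of 5 lists (29.0%, Cell Signaling Technologies 5326 BF) and H3K4me2 in 1 of 4 (21.0%, EMD Millipore 05-1338).

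PSMC6, another base ATPase of chromosome 14, was covered at 100% in Abclonal A2357, Diagenode C15410003 and EpiGentek A-4033-050 and at 0% in the other 5 H3K4me3 lists, where the nearest peak was 10338 to 79096 bases away. PSMD6, a regulatory subunit on chromosome 3, was also split between antibodies. It was covered at 52.7% to 95.4% in 6 H3K4me3 lists and at 0% in Diagenode C15410003 and EpiGentek A-4033-050. These 2 antibodies are the ones run beside the AR17 input, and the other 15 were run beside the AR16 input. They also left out PSMD12 and PSME2, each covered in the other 6 H3K4me3 lists. Over all genes these 2 lists had a peak at 40.2% and 33.5% of the starts, against 51.7% to 75.3% in the other 6. Values where these genes did have a peak lay on both sides of the constitutive median. PSMC6 had the authors' value of 75.9 in Abclonal A2357, the highest of the 30 constitutive subunits in that list (median 57.0), and 15.6 in Thermo Fisher 710795 (median 16.4). PSMB6 had 59.4 in Abclonal A2357 and 17.3 in Cell Signaling Technologies 5326 BF (median 18.6). The authors' value is a signal on the calibrated scale and is used here only to rank peaks within a list.

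At the immunoproteasome genes H3K4me1 ran across the start in most lists. PSMB8, PSMB9 and PSMB10 had a peak in all 17 lists. H3K4me1 covered the start base of 86.7% ± 18.3 of these 3 genes (n = 5 antibodies), against 27.7% ± 19.7 of the constitutive subunits, and H3K4me3 covered 91.7% ± 15.4, against 89.9% ± 5.30 (n = 8). PSMB8 and PSMB10 had the start base under H3K4me1 in all 5 lists and PSMB9 in 3. With 3 genes set against 31, this is a description and was given no test.

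PSMB8, the inducible counterpart of PSMB5, lies on the minus strand of chromosome 6 with its canonical start at 32844047. Its window was covered at 100% in all 5 H3K4me1 lists, and at 100%, 100%, 93.6% and 100% in the H3K4me2 lists of Abcam ab7766, Cell Signaling Technologies 9725, EMD Millipore 05-1338 and Thermo Fisher 710796. H3K4me3 covered 20.7% (EpiGentek A-4033-050) to 100% (Abcam ab8580), with a median of 51.1%. H3K4me1 was thus at or above every H3K4me3 list, by 42.6 points (exact permutation p = 0.00932, adjusted p = 0.0346), a call that was lost when any 1 of 12 antibodies was left out and among the AR16 antibodies (34.5 points, adjusted p = 0.0715). Without 1 antibody at a time the difference itself ranged from 37.4 to 48.7 points. The H3K4me3 peaks were 415 to 2871 bases wide with a median of 1023.5, the lowest among the proteasome genes with a peak in all 8 lists. Of the 8 lists, 6 had H3K4me3 over the canonical start base. In Abcam ab12209 and EpiGentek A-4033-050 the peak began 30 and 241 bases upstream of it, towards the other annotated start that lies 632 bases further upstream.

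PSMB9, the counterpart of PSMB6, starts at 32854192 on the plus strand of the same chromosome, 488 bases from the opposite start of TAP1, a subunit of the transporter that moves peptides into the endoplasmic reticulum. The windows of PSMB9 and TAP1 overlap, so their values cannot be told apart, as at the other shared starts named above. H3K4me1 covered the PSMB9 window at 100%, 100%, 77.5%, 100% and 63.6% and H3K4me3 at 68.3% to 100% (median 82.0%), a difference of 5.34 points that did not pass (exact permutation p = 0.530, adjusted p = 0.705). The gene's other annotated 5′ end lies 10056 bases upstream, beside PSMB8, and with the window placed there the difference was 43.2 points (exact permutation, adjusted p = 0.0321). PSMB10, the counterpart of PSMB7, starts at 67936850 on the minus strand of chromosome 16. It was covered at 52.6%, 100%, 55.7%, 90.9% and 60.1% in the H3K4me1 lists and at 64.6% to 86.0% in the H3K4me3 lists (median 82.0%), again with overlapping groups (-6.84 points, exact permutation p = 0.423, adjusted p = 0.585).

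Beside them, the constitutive counterparts were less alike. PSMB5 was covered at 83.3%, 86.7%, 7.85%, 83.1% and 62.9% for H3K4me1 and at 70.7% to 100% for H3K4me3 (exact permutation p = 0.132, adjusted p = 0.230). PSMB7 was covered at 60.4% to 100% for H3K4me1 and 50.1% to 100% for H3K4me3, so the groups overlapped (exact permutation p = 0.567, adjusted p = 0.744). PSMB6 had few peaks, as given above.

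**Figure D4:**
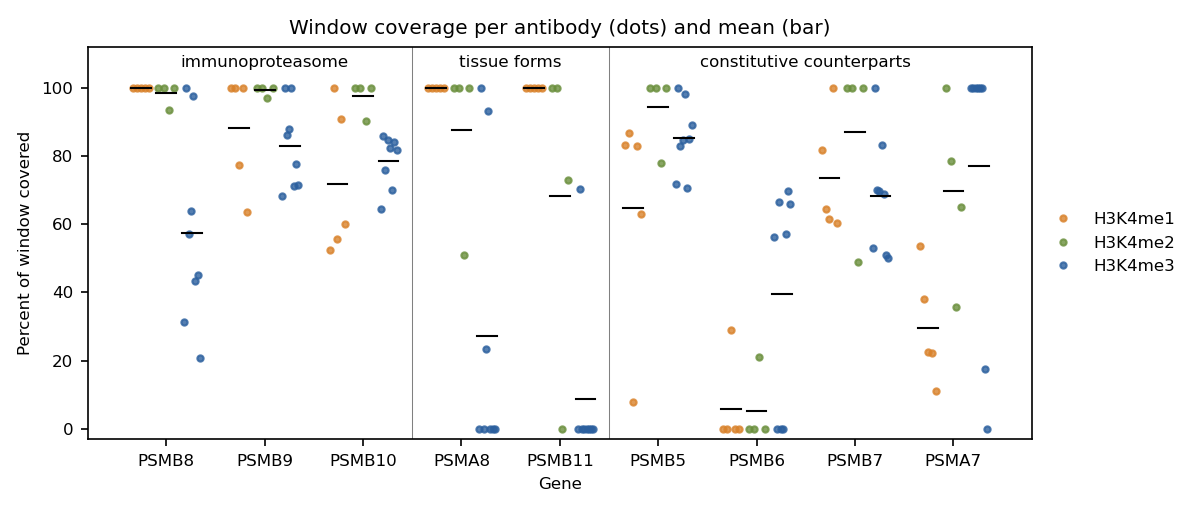
Percent of the start-site window covered, per antibody (dots) and as the mean (bars), for the immunoproteasome genes, the tissue forms, the catalytic constitutive counterparts and PSMA7. PSMB8, PSMA8 and PSMB11 sit at 100% in all 5 H3K4me1 lists, while PSMB6 is at 0% in 4 of them.

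The height of the peaks separated PSMB8 and PSMB9 from PSMB10. In the 5 H3K4me3 lists that hold values, PSMB8 had values of 10.3 (Abcam ab12209), 19.6 (Abclonal A2357), 23.1 in the list of EMD Millipore 05-745R, 25.4 in that of EMD Millipore 07-473 and 11.2 (Thermo Fisher PA5-40086). In each list this was below the lowest constitutive subunit with a peak, and those minima were 28.6, 43.2, 31.0, 37.6 and 30.4. Constitutive subunits without a peak in a list have no value there and are left out. PSMB9 had values of 22.3, 35.5, 38.9, 32.4 and 26.9, in 4 of the 5 lists below every constitutive subunit that had a peak there. PSMB10 had values of 39.0, 59.0, 55.6, 67.5 and 48.1, beside constitutive medians of 40.6, 57.0, 45.5, 45.9 and 49.4, and was the highest of the 42 genes with a value in EMD Millipore 07-473. For H3K4me2 the 3 genes lay inside the constitutive range in all 4 lists. In the Thermo Fisher 710796 list the H3K4me2 values were 28.3, 29.6 and 39.0 for PSMB8, PSMB9 and PSMB10, beside a constitutive median of 28.1.

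**Figure D5:**
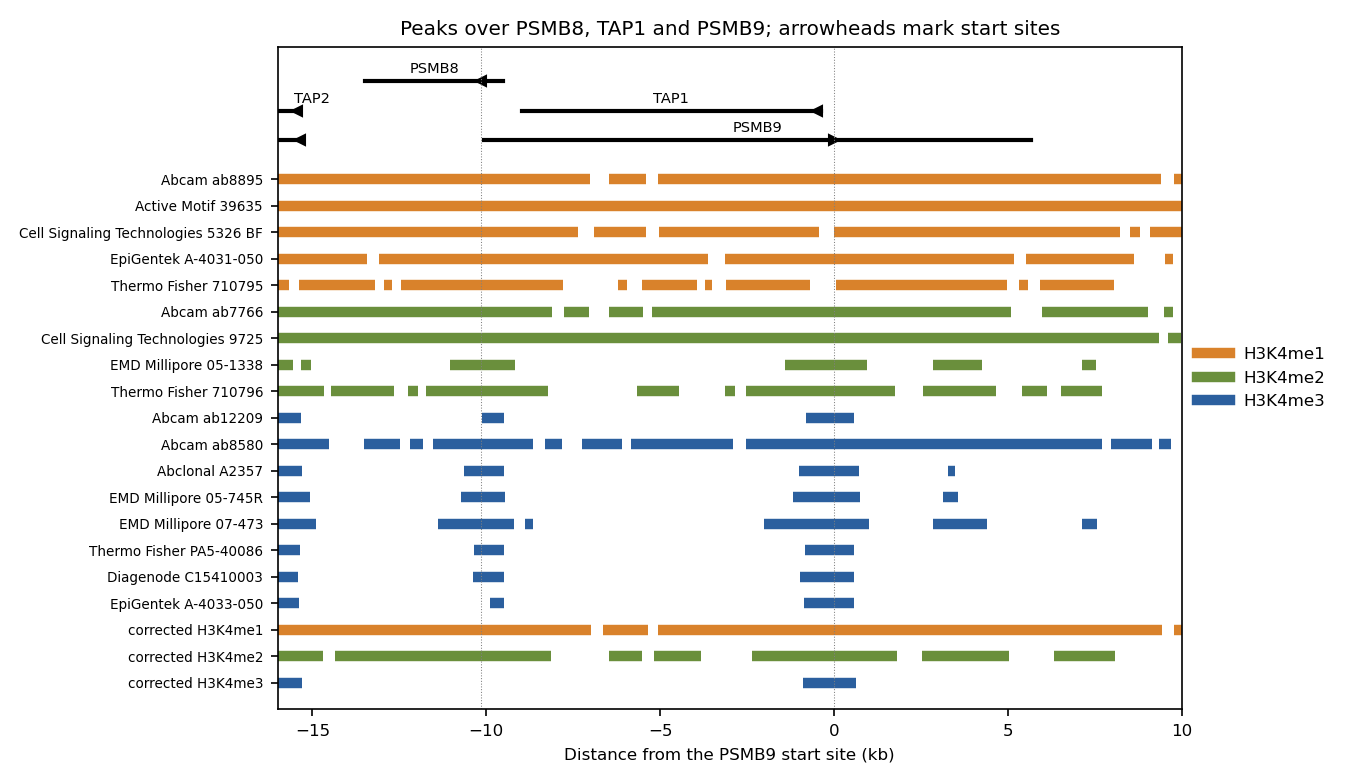
Peaks of the 17 antibody lists and the 3 corrected lists around PSMB8, TAP1 and PSMB9, as distance from the PSMB9 start site (kb), with gene bodies on top and arrowheads at canonical start sites. H3K4me1 runs through the PSMB8 start in all 5 lists, H3K4me3 forms a short block there, and the corrected H3K4me3 list has a block at the shared PSMB9 and TAP1 start but none at PSMB8.

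Promoter sequences are given for the immunoproteasome genes, for PSME2, which belongs to the interferon-inducible activator, for the constitutive subunit PSMB5, and for the tissue form PSMB11, because these carry the contrast. Each runs from 250 bases before to 50 bases after the RefSeq start (GRCh38.p14), 5′ to 3′ along the gene. RefSeq starts equal the canonical start at all 41 of the 46 genes that matched by symbol, and PSMA7, PSMB1, PSMB6, PSMB7 and PSMD4 did not match. Capitals mark matches, on either strand, to 6 short motifs. These were CCAAT, known from nuclear factor Y sites, together with the Sp1 box GGGCGG, the ETS family core written CCGGAA, and the promoter element TATAAA. The others were TGACNNNGC, the core of the antioxidant response element, and GAAANNGAA, the core of the interferon-stimulated response element. A CCGGAA match can share letters with a GAAANNGAA match. The intervals are chr6:32843998-32844297 (minus strand), chr6:32853942-32854241 (plus), chr16:67936801-67937100 (minus), chr14:24146561-24146860 (minus), chr14:23034851-23035150 (minus) and chr14:23041962-23042261 (plus).
PSMB8: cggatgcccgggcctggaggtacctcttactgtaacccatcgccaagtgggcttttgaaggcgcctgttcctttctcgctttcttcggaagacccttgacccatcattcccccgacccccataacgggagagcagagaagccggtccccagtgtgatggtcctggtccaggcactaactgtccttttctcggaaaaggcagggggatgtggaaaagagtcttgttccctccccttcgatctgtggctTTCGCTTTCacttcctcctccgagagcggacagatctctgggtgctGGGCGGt
PSMB9: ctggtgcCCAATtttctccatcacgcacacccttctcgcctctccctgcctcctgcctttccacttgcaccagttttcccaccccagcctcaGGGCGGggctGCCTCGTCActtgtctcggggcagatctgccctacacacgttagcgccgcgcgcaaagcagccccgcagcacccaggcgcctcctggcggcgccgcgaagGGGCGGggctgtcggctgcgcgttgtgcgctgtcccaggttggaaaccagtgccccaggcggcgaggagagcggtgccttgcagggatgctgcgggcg
PSMB10: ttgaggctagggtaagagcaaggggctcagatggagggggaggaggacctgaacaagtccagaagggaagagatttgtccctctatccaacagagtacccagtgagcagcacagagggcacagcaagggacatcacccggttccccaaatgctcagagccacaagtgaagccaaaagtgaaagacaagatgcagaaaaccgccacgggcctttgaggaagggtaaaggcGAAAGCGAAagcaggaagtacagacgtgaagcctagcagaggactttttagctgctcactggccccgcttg
PSME2: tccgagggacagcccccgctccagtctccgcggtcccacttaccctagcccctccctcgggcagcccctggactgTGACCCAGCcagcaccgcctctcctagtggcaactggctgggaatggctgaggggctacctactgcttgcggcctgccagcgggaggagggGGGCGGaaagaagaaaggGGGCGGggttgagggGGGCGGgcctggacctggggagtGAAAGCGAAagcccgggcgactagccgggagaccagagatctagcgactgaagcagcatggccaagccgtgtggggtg
PSMB5: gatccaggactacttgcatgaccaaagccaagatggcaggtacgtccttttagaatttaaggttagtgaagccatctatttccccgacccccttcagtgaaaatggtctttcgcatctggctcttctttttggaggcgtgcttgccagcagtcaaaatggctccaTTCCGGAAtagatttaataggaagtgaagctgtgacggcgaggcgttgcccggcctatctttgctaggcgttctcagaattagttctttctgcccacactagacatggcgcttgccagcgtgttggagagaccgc
PSMB11: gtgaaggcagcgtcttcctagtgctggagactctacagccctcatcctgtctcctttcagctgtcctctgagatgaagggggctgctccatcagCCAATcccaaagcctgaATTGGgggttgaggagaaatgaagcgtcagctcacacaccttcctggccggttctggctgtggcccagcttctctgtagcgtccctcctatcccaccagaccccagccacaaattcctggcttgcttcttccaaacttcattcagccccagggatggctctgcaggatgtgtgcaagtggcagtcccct

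GAAANNGAA was found in 6 of the 41 promoters (14.6%) and in 6.86% of 15315 promoters of protein-coding genes. The 6 were PSMB8, PSMB10, PSME1 and PSME2 of the interferon-inducible set, and PSMB4 and PSMC2. In PSMB8 and PSME1 it lay on the reverse strand (TTCGCTTTC), and in PSMB10 and PSME2 the forward strand read GAAAGCGAA. PSMB9 had no match in this window, but held TGACNNNGC, as did 11 of the 41 promoters (26.8%, against 14.3% of all). CCGGAA was in 23 of the 41 (56.1%, against 23.7% of all), and CCAAT in 19 (46.3%, against 36.6%). GGGCGG was in 28 (68.3%, against 61.8%) and TATAAA in 5 (12.2%, against 9.42%). CpG dinucleotides numbered 15, 26 and 7 in the 300 bases of PSMB8, PSMB9 and PSMB10, 25 in PSMA8 and 4 in PSMB11, beside a median of 21.5 in the 26 constitutive promoters and 23.0 over all. PSMB11 had the fewest of the 41. These are counts of letters and say nothing of binding.

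The tissue forms carried H3K4me1 without much H3K4me3. PSMA8, an alpha subunit of the testis on chromosome 18, was covered at 100% in all 5 H3K4me1 lists and at 100%, 100%, 50.9% and 100% in the H3K4me2 lists. H3K4me3 covered 100% in Abcam ab8580, 93.3% in EMD Millipore 07-473 and 23.5% in EMD Millipore 05-745R, and 0% in the other 5 lists, with the nearest peak 42121 bases or more away in each of those 5. The difference was 72.9 points (exact permutation p = 0.00932, adjusted p = 0.0346), and the call was lost without any 1 of 12 antibodies and among the AR16 antibodies (63.9 points, adjusted p = 0.0715). Its H3K4me1 value was the lowest or nearly the lowest of the proteasome genes in each list, with ranks of 43 of 43, 35 of 35, 45 of 45, 45 of 45 and 43 of 45 from the highest. PSMB11, the catalytic beta subunit of the thymoproteasome on chromosome 14, was also at 100% in all 5 H3K4me1 lists, inside peaks 9914 to 80465 bases wide. H3K4me2 covered it at 100%, 100%, 0% and 72.9%, and H3K4me3 at 70.4% in Abcam ab8580 and 0% in the other 7 lists. The difference was 91.2 points (exact permutation p = 0.00155, adjusted p = 0.0115), or 100 when Abcam ab8580 was left out. The PSMB11 start lies 7312 bases from that of PSMB5, whose own H3K4me3 peak spanned its start in all 8 lists. Over both tissue forms a peak was present at 100%, 87.5% ± 25.0 and 25.0% ± 37.8 for H3K4me1, H3K4me2 and H3K4me3, against 92.9% ± 8.95, 92.7% ± 6.65 and 91.1% ± 3.76 of the constitutive subunits.

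Among the activators, PSME1 and PSME2 varied more between antibodies than PSME3 and PSME4. PSME1 and PSME2 form the interferon-inducible cap of the barrel and lie close together on chromosome 14. PSME1 was covered at 34.3%, 0%, 77.5%, 75.2% and 43.1% for H3K4me1, at 100% in all 4 H3K4me2 lists, and at 0% to 100% for H3K4me3 (median 68.9%). PSME2 was covered at 31.6%, 0%, 73.5%, 51.0% and 27.6% for H3K4me1 and at 0% to 100% for H3K4me3 (median 90.1%). Neither passed the test of H3K4me1 against H3K4me3 (exact permutation, adjusted p = 0.547 and 0.271). Their values of 0% came from Active Motif 39635 and Diagenode C15410003, and at PSME2 also from EpiGentek A-4033-050. Over all genes these lists had a peak at 4.39%, 19.0% and 12.7% of starts on chromosomes 13, 14 and X, against 77.3%, 42.3% and 35.5% elsewhere. PSME3 lies on chromosome 17 and PSME4 on chromosome 2, and the part of the chromosome in this contrast was not tested. PSME3, the nuclear activator, was covered at 71.5% ± 17.5 for H3K4me1 and 95.5% ± 7.52 for H3K4me3 (-24.1 points, exact permutation p = 0.00777, adjusted p = 0.0346), but with 2500 bases either side H3K4me1 was higher, by 42.6 points (adjusted p = 0.00896). PSME4, a large activator found in nuclei and in testis, was covered at 55.7% ± 17.2 and 96.3% ± 3.21 (-40.6 points, exact permutation p = 0.00155, adjusted p = 0.0115), and its groups did not overlap. PSMF1, the inhibitor, was covered at 34.9% ± 28.8 for H3K4me1 and 78.7% ± 28.3 for H3K4me3 (exact permutation p = 0.0311, adjusted p = 0.0755), with 37.5% and 29.7% in Diagenode C15410003 and EpiGentek A-4033-050.

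In the corrected lists most proteasome genes had peaks of H3K4me1 and of H3K4me2, and fewer had a peak of H3K4me3. A peak lay within 1 kb of the start at 40 of the 46 genes in the corrected H3K4me1 list (71.4% of all genes), at 35 in the corrected H3K4me2 list (55.1%) and at 19 in the corrected H3K4me3 list (18.1%). The same 19 genes had a peak in all 3 lists (16.4% of all genes), and 14 of them are constitutive subunits. PSMB9 and PSMB10 were among the 19, and PSMB8, PSMA8 and PSMB11 were not. Among genes covered at 100% in all 8 H3K4me3 antibody lists, PSMA2, PSMB1, PSMB2, PSMD5 and PSMD13 had a corrected H3K4me3 peak. PSMA1, PSMA3 and PSMD7, covered alike, had none. There is 1 corrected list per degree, so these counts have no replicate. Only 1 of the 9 proteasome genes on chromosomes 13, 14 and X, PSMB5, had a corrected H3K4me3 peak, against 18 of 37 elsewhere, while over all genes the shares were 1.17% and 19.8%. Within the corrected H3K4me3 list the authors' value was highest at PSME3 (72.0), PSMB10 (64.6) and the ATPase gene PSMC5 (64.0), and lowest at PSMB9 (31.6), PSMB7 (34.8) and the chaperone gene PSMD5 (35.6). The widest of these peaks lay at PSMB1 (3767 bases), PSMD14 (2948) and PSMD11 (2919), and the narrowest at PSMB7 (1290), PSMB9 (1511) and PSMD4 (1531). PSMB1 is a beta ring subunit, PSMD14 the deubiquitinase of the regulatory particle, PSMD11 a scaffold subunit and PSMD4 a ubiquitin receptor. The median width was 2345 bases at the 19 genes and 1779 at all genes with such a peak, and the median value 49.1 against 45.0.

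The lists of repressive marks were broad, and that of H3K27me3 covered 2029 Mb. H3K27me3, the Polycomb mark, had a peak within 1 kb of 30 of the 46 starts (73.9% of all genes), among them PSMB8 and PSMB9, which lie in 1 peak of 376789 bases, and PSMA8, in 1 of 378427 bases. PSMB10 and PSMB11 had none, with the nearest 57908 and 5984 bases away. On chromosomes 13, 14 and X, where PSMB11 lies, 2 of 9 proteasome genes had an H3K27me3 peak, against 28 of 37 elsewhere. Over all genes the shares were 53.3% and 76.0%. The H3K9me3 list covered 2834 Mb and reached all 46 starts (98.7% of all genes). Both lists hold positions only.

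Genes that work with the proteasome were counted in the same way, beside 11.3% of all genes called lower and 26.5% called higher, and the lists were not tested against each other. Of 8 partners without a PSM symbol, 4 were called lower for H3K4me1 than for H3K4me3 and 0 higher, among them TXNL1, a thioredoxin-like protein of the regulatory particle (-59.7 points), and AKIRIN2, which carries proteasomes into the nucleus (-50.3 points). Of 5 assembly chaperones 2 were lower (PSMG1 and PSMG3), and of 8 ubiquitin and segregase genes 3 were lower, among them UFD1, a cofactor of the segregase (-32.0 points). Among 6 genes around NFE2L1, the factor that raises proteasome genes when the proteasome is inhibited, NFE2L1 (-46.5 points) and NGLY1 (-40.0) were lower and the small MAF genes MAFF (63.1) and MAFK (50.4) were higher. Of 12 antigen processing genes 3 were higher, among them NLRC5, the class I transactivator (72.1 points), and TAP2, a transporter subunit (32.7), and 1 was lower, B2M (-27.4), the light chain of class I molecules, both near the shares over all genes. The median difference was -29.2 points for the partners, -27.0 for the assembly chaperones, -32.0 for ubiquitin and segregase genes and 9.13 for antigen processing genes, beside 7.55 over all genes.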

How the data were processed

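Peak lists of 22 kinds from ChIP-seq with calibrated nucleosome standards in K562 cells were used: 17 antibodies to H3K4 methylation, 3 corrected lists, H3K27me3 and H3K9me3. The authors deposited for each peak its position and, in 17 of the lists, a signal on the calibrated scale. That deposited signal passes 100 in places, so it was used only to rank peaks within a list. Bowtie2, SAMtools, bedtools and MACS2 and the build GRCh38 are named in the submitters' processing notes, and their settings are not given here. Each antibody is 1 list, and a p-value here reflects how antibodies differ on 1 line, not how cultures do. The 6 other samples (2 K562 inputs and 4 mouse samples) were not used.

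For each of 19962 genes the percent of the 2001 bases centred on the canonical start (GENCODE release 44) under peaks was computed, and a peak counted as present from 1 base of overlap. Targets were compared with exact two-sided permutation tests over antibodies, adjusted by Benjamini-Hochberg over all genes for each of 3 pairs, at 0.05. The test was checked on simulated data. The genes named are the immunoproteasome, tissue, catalytic and activator genes, the genes with the fewest lists, those in all 17, the extremes of the corrected H3K4me3 list and the largest called differences. PSMB3, PSMB4, PSMD12 and the genes of the other lists were named after their values were seen. Members and lists were chosen with earlier results of these data known. Alternatives were the window, the start, a value minimum, the overlap, the input, the cycles, chromosomes, peaks over 1 Mb and the adjustment. The read depth is unknown. Python 3.11.15, numpy 2.4.6, pandas 2.3.3 and matplotlib 3.10.9 were used.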

Additional observations from a re-analysis of the deposited data

Results flagged for a closer look

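Among 41 sets of antibodies with any spread, 11 held a value whose gap to the next was large against the range of the set. Where all other antibodies tie at 0% or 100%, any departure is flagged, however small, so no chance rate is given. Of the 11 flagged values, 8 come from EMD Millipore 05-1338, 1 of the 4 H3K4me2 antibodies, whose list covers 111 Mb against 518 to 1502 Mb for the other 3. It covered less of the window than the other 3 antibodies, which stood at 100%, at PSMB8 (93.6%), PSMB9 (97.1%), PSMB10 (90.2%), PSMA8 (50.9%), PSMB5 (78.1%), PSMB7 (48.8%) and PSME3 (82.5%). At PSMB6 it covered 21.0%, where the other 3 were at 0%. It is also the only 1 of the 4 H3K4me2 libraries amplified for 12 cycles, and the part of either in these values was not tested.

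Active Motif 39635 had an H3K4me1 peak at 76.1% of the 46 genes, with the next lowest H3K4me1 antibody at 93.5%. Over all genes this list had a peak at 70.7% of the starts, and at 4.39% of those on chromosomes 13, 14 and X. Cell Signaling Technologies 5326 BF covered 29.0% of the PSMB6 window, where the other 4 H3K4me1 antibodies were at 0%. Abcam ab8580 covered 70.4% of the PSMB11 window, where the other 7 H3K4me3 antibodies were at 0%.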

How the results depend on the processing

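No paired analysis was possible because the labels give the antibodies no shared replicate numbers. The count of genes called between H3K4me1 and H3K4me3 (7546) became 11406 with 2500 bases either side, 4169 with AR16 antibodies, 0 with 8-cycle libraries (7386 at an unadjusted p of at most 0.05, exact permutation) and 2686 with 1 adjustment over all 3 pairs. It ranged from 3468 to 8619 without 1 antibody, lowest without Cell Signaling Technologies 5326 BF and highest without Abcam ab8580. The 16 proteasome genes called lower became 1, 0 and 8 with 2500 bases, 8 cycles and the joint adjustment, and 9 to 16 without 1 antibody. The 4 called higher became 1 with 500 bases, 24 with 2500 bases, 2 with peaks at or above the list's median, 1 with AR16 antibodies, 0 with 8 cycles, 2 without chromosomes 13, 14 and X and 1 with the joint adjustment, and 1 to 5 without 1 antibody. Apart from the windows of 500 and 2500 bases, shares by direction over all genes were not computed for these runs. The H3K4me1 share of 92.6% became 79.1% with 500 bases and 64.8% when 0.5 of the window had to be covered. The H3K4me3 share of 89.9% became 83.7% at the 5′ end of the gene and 95.3% without chromosomes 13, 14 and X. Without 1 antibody the shares ranged from 91.3% to 96.7%, 93.5% to 95.7% and 89.4% to 91.0% for H3K4me1, H3K4me2 and H3K4me3. The 40 genes in the corrected H3K4me1 list became 26 when 0.5 of the window had to be covered. Both comparisons with H3K4me2 gave 0 genes in each alternative run, which says nothing of stability, since the smallest p that these designs allow is 0.00404 to 0.0357.

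The sign of the difference turned at 500 bases for PSMB9 (-19.8). At 2500 bases it turned for PSMA2 (8.59), PSMA5 (23.3), PSMB2 (5.54), PSMC4 (36.7), PSMC5 (25.6), PSMD13 (19.0), PSMD14 (16.0), PSMD3 (30.4), PSME3 (42.6), PSME3IP1 (2.11), PSME4 (5.93) and PSMB10 (28.4). At the 5′ end of the gene it turned for PSMA6 (21.2) and PSME3 (20.2). Beyond the wider window taking in the flanks, the cause was not tested. Of the 20 called genes, 10 stayed called without each antibody in turn: PSMB11, PSMA2, PSMA3, PSMA6, PSMB3, PSMC4, PSMD10, PSMD13, PSME3IP1 and PSME4.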
